A study of Danio rerio with 6 samples.

Results

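ATAC-seq of adult zebrafish blood was examined at the zinc finger genes whose names begin with *znf* or *zbtb*. The members are the regions that the deposited comparison lists as more open in blood of cortisol-treated fish and that it assigns, by nearest transcription start, to a gene with such a name. They number 103 of the 9546 regions listed and fall on 67 of the 6295 genes named there. Of these, 77 regions belong to 50 *znf* genes and 26 regions to 17 *zbtb* genes. *znf410*, with a single listed region, is among them. Because the list was made by comparing these same libraries, every difference between treated and control fish below is a description and carries no test.

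There were 6 libraries of the AB strain, 3 from adults whose larval medium held 1 µM cortisol during the first 5 days of life and 3 from adults given the DMSO vehicle. Replicates 1, 2 and 3 of each group were 12, 11 and 10 months old, so replicate number, age and any batch that followed them cannot be told apart. The authors describe each library as blood pooled from 6 fish, males and females in equal number. The deposited description speaks of 6 individual adults, which can be read as the same pool. AB is a wild-type strain, and the authors describe the controls as siblings of the treated fish.

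Most *znf* genes encode C2H2 zinc finger proteins, in which each finger is a short loop folded around a zinc ion and a row of fingers reads a DNA sequence. The *zbtb* proteins carry an additional BTB domain that joins molecules and, in mammals, draws co-repressors such as NCOR and BCOR to DNA. Several members of both families steer blood lineages in mammals. ZNF410 is known there for switching on *Chd4*, the helicase of the NuRD co-repressor that keeps fetal globin genes silent. Fish genomes also hold large tandem families of near-identical *znf* genes, many of them on the long arm of chromosome 4.

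Peaks in the 6 libraries ranged from 26905 summits (cortisol-treated replicate 3) to 138146 summits (control replicate 1), and the background of a list ranged from 1.99 to 9.06 reads. A peak's score rises with depth and with its height over the background, so levels are given here as percentiles. A region's percentile in a library is the rank of its strongest overlapping peak among the 13835 merged regions that had a peak in every library, and it is 0 where the library had no peak. Summit heights, in reads, were recovered from the scores. The median height of these merged regions was 81, 121 and 61 reads in cortisol-treated replicates 1, 2 and 3. In the controls it was 65, 63 and 77 reads. The backgrounds were 5.72, 6.55 and 1.99 reads in the treated and 9.06, 9.04 and 3.39 in the control libraries. Height over background thus differed between libraries, and its part in the percentiles was not tested. The blood label was checked against marker genes: 9 of 10 erythroid markers had a listed region, and red cells of fish are nucleated, while 1 of 9 myeloid (*mpeg1.1*), 0 of 9 lymphoid and 2 of 6 thrombocyte markers did. The list holds only regions called more open in treated fish, so a marker without a region there is not shown to be closed. In blood as a bulk sample, fewer cells of a type and less open chromatin per cell cannot be told apart.

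No transcript or promoter sequence is shown, because the reference tables at hand hold names and no bases. Positions are on GRCz10. By name, 62 of the 67 genes were found in RefSeq's GRCz12tu annotation, which names 228 *znf* or *zbtb* genes in all, so that 27.2% of the named family had a listed region. The same share over all genes of that annotation was not computed, so this share is no result about the family. Of those 228 genes, 33 lie on chromosome 4 (14.5%), and 5 member genes lie there.

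The regions sat mostly at or near gene starts. The annotation placed 45 of 103 in promoters (43.7%, against 47.1% of all listed regions), 34 between genes (33.0% against 35.4%), 18 in introns (17.5% against 11.6%), 4 at transcription ends, 1 in an exon and 1 in a 5′ UTR. Within 1 kb of the start lay 56 regions, and within 10 kb lay 69 (67.0%, against 69.6% of all listed regions). Beyond 100 kb lay 9 (8.74% against 5.03%), and 5 of these were on chromosome 4. The members had a median length of 376 bp, close to the 373 bp of the whole list, and ran from 200 to 1376 bp. These shares were not tested.

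For 5 regions the annotated element belonged to another gene than the one named. The region 4 bp before the start of *znf593*, whose yeast relative acts in ribosome assembly, was annotated as the promoter of *morn2*. The *znf346* region lay in an intron of *rbm41*. The regions of *znf292a*, *znf711* and *znfl2a* (2095 bp upstream) lay at the transcription ends of *cga*, *zgc:66447* and *igfbp1b*. At these places the name given to a region is a matter of distance.

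Most genes had 1 region. A single region was listed for 47 genes, 2 regions for 10 genes and 3 or more for 10 genes (14.9%, against 10.7% of all named genes). *znf395a* had 5 regions. *zbtb20*, *znf76*, *znf207a* and *znf609a* had 4 each, and *zbtb1*, *znf1005*, *znf1124*, *znf395b* and *znfl2a* had 3 each.

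A peak was found in every library at 97 of the 103 regions (94.2%, against 93.1% of all listed regions). The other 6 were *zbtb2a* (+437 bp from the start), *zbtb34* (+9088), *zbtb8os* (-30), *znf1068* (-573118), *znf45l* (+146) and *znf511* (-214). Each of them lacked a peak in 1 control library, and *zbtb8os* also lacked one in cortisol-treated replicate 1. A missing peak means that no peak passed the caller's threshold at that depth.

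The members spanned nearly the whole range of openness. Their mean percentile over the 6 libraries had a median of 63.2, beside 62.6 over all listed regions. By class the median was 73.4 between genes, 69.0 in promoters and 43.7 in introns, beside 62.4, 64.4 and 57.5 over all listed regions of these classes. The *zbtb* regions had a median of 56.3 and the *znf* regions of 65.5. At or above the 90th percentile were 11 members (10.7%, against 12.7% of all listed regions). A member's percentile varied over the 6 libraries by a median of 18.3 points, from 0.441 to 67.5 points, and 24 members varied by more than 30 points. Set against that, the medians of the members in each library lay close together. They were 66.2, 66.6 and 67.5 after cortisol (replicates 1, 2 and 3) and 65.3, 62.6 and 66.8 in controls. A percentile is a rank within a library, so close medians do not show that the libraries were alike.

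**Figure D1:**
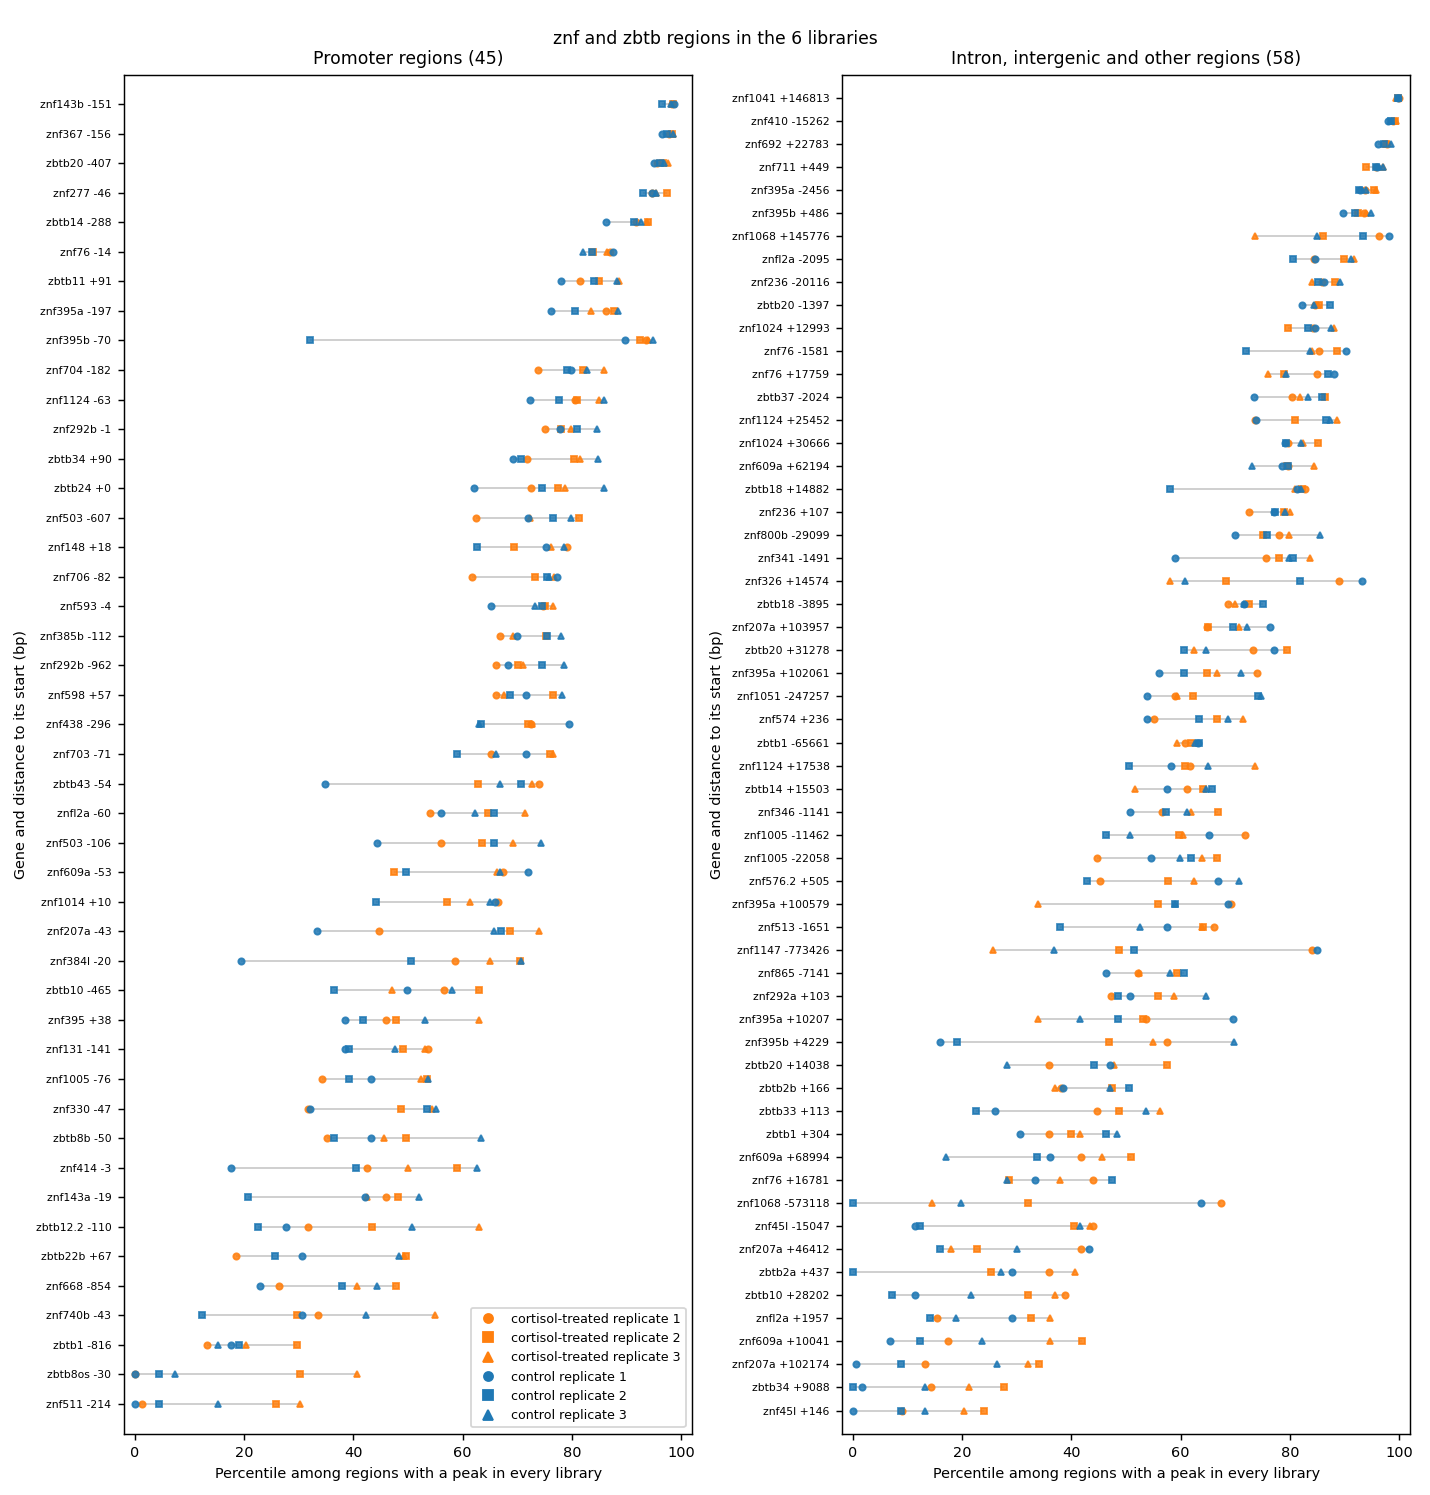
Percentile of each of the 103 regions in the 6 libraries (horizontal axis, 0 to 100, among regions with a peak in every library), with promoter regions on the left and all others on the right, ordered by their mean; colour marks the treatment, shape marks the replicate and the grey line spans the lowest to the highest library. The most open regions, such as *znf1041* and *znf410*, keep nearly the same place in each library, while regions lower down spread widely and the colours mix.

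The region assigned to *znf410* (ENSDARG00000008218) was among the most open. It covers chr20:54544523-54545124, 602 bp between genes, 15262 bp upstream of the start it was assigned to. In order of replicate number, the cortisol-treated libraries gave percentiles of 98.8, 99.2 and 99.4, and the controls gave 97.9, 98.6 and 98.5. Later values follow this order, treated first. Each treated library thus stood above each control, in a range so near the ceiling that the group means, 99.1 ± 0.274 and 98.3 ± 0.352 (SD, n = 3), differed by 0.811 points. Ranked in each library's own peak list, the values were 99.6, 99.8 and 99.6 against 99.8, 99.6 and 99.1, and the groups overlapped. The summit reached 778, 1039 and 600.2 reads with cortisol, against 434, 419 and 578 reads without. Set against the median region of each library, the height was 0.43 higher on the log2 scale in treated fish. It ranked 2 of 103 by mean percentile, and 61 other members had a larger treated-minus-control difference in percentile. The authors list this region among the peaks with the highest scores in their own comparison of treated with control fish, a score not used here.

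The distance fixes the start of *znf410* only up to its side. At the higher-coordinate position the start fell in a region with a peak in all 6 libraries, at percentiles of 35.1, 27.0 and 30.2 in the treated and 38.4, 8.80 and 46.4 in the control libraries, and at the lower-coordinate position no library had a peak. The gene's own candidate start was therefore far less open than the region 15262 bp away, and the treated and control values there overlapped. In the newer GRCz12tu annotation the protein-coding neighbours of *znf410* are *cipcb* and *entpd5b*.

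The regions whose 6 percentiles lay nearest to those of *znf410* were taken by Euclidean distance over the 6 libraries. They were *znf367* (-156 bp, distance 2.42 points), *znf143b* (-151, 2.71), *znf1041* (+146813, 2.94), *znf692* (+22783, 3.52) and *zbtb20* (-407, 6.15). What these share with *znf410* is first of all a place near the top of every library. *znf367*, described in human erythroid cells as ZFF29, had percentiles of 97.8, 98.2 and 98.6 in the treated and 96.6, 97.4 and 98.5 in the control libraries. *znf143b*, one of a pair of fish copies of the promoter activator ZNF143, stood at 98.3, 98.4 and 98.3 against 98.7, 96.4 and 98.0. In both, treated and control libraries overlapped.

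Among the *zbtb* genes, *zbtb20*, a repressor known from mouse liver and B cells, held the most open region. Its promoter region (chr5:66982136-66983230) stood at 95.5, 96.6 and 97.7 in the treated and 95.0, 96.2 and 96.9 in the control libraries. A second region 1397 bp upstream stood at 84.7, 85.3 and 85.1 against 82.1, 87.4 and 84.3. Openness of this gene thus centred on the start, with overlapping groups. Its intronic regions were lower and less even: the one at +14038 ranged from 28.1 to 57.4 and the one at +31278 from 60.5 to 79.5 over the 6 libraries.

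*zbtb1*, needed for lymphocyte development in mice, showed the reverse layout. Its most open region lay 65661 bp upstream, at 60.8, 61.9 and 59.3 in the treated and 63.2, 63.3 and 62.7 in the control libraries. The promoter region at -816 was low in every library, from 13.2 to 29.7, and the intronic one at +304 ran from 30.5 to 48.3. The upstream region was the only member in which each treated library lay below each control, with a difference of -2.41 points between the group means.

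Other *zbtb* genes with known blood or chromatin roles had 1 region each near the start. The promoter of *zbtb11*, required for neutrophil development in zebrafish, stood at 81.5, 84.9 and 88.5 in the treated and 78.1, 83.9 and 88.3 in the control libraries, in the order of age within each treatment. The region of *zbtb33* (+113), which encodes the methyl-DNA binding factor Kaiso, stood at 44.6, 48.7 and 56.2 against 26.0, 22.4 and 53.7. Its group means were 49.8 ± 5.90 and 34.1 ± 17.1 (SD, n = 3), and the highest control exceeded the lower 2 treated libraries.

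The weakest *zbtb* regions were those of *zbtb8os* and *zbtb34*. *zbtb8os*, named for lying opposite *zbtb8* and encoding archease, a tRNA ligase cofactor rather than a zinc finger protein, had 30.2 and 40.7 in treated replicates 2 and 3 and no peak in replicate 1. Its controls had no peak, 4.48 and 7.41. The *zbtb34* intron (+9088) stood at 14.3, 27.6 and 21.3 against 1.66, no peak and 13.2, with no overlap.

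*znf143a* and *znf76*, close relatives of *znf143b*, were listed at their starts too. *znf143a* (-19) stood at 45.9, 48.2 and 42.4 in the treated and 42.1, 20.7 and 52.0 in the control libraries, far below *znf143b*. *znf76* had a promoter region (-14) at 87.0, 83.8 and 86.4 against 87.5, 83.7 and 82.1. Both overlapped between groups. Of the other *znf76* regions, -1581 ranged from 72.0 to 90.3, +17759 from 75.9 to 88.0, and +16781, at the transcription end, from 28.1 to 47.4. The openness around *znf76* was therefore high on both flanks and low in between at the latter site.

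The other members of the list of blood-linked genes were *znf148*, whose product ZBP-89 binds GC-rich promoters, and *znf703*, a co-repressor of the NET family. *znf148* (+18) stood at 79.1, 69.5 and 76.2 in the treated and 75.2, 62.6 and 78.6 in the control libraries. *znf703* (-71) stood at 65.1, 75.9 and 76.5 against 71.5, 58.9 and 66.0. Counted with *znf410*, *zbtb1*, *zbtb11*, *zbtb20*, *zbtb33* and both *znf143* copies, 9 of the 24 genes of this list had a region, 14 regions in all. Their median difference between treated and control was 2.16 points, beside 2.06 for the members as a whole.

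*znf395a* and *znf395b* are fish copies of the mammalian factor ZNF395, and both had several regions. In *znf395a* the region upstream of the promoter was the most open. The region 2456 bp upstream stood at 93.7, 95.3 and 95.7 in the treated and 92.8, 92.6 and 93.9 in the control libraries, and the promoter (-197) at 86.3, 87.8 and 83.5 against 76.1, 80.5 and 88.4. The exonic region at +10207 ranged from 33.9 to 69.6, that at +100579 from 33.9 to 69.1 and that at +102061 from 56.0 to 74.0. The 2 most distant regions, near each other in the genome, differed in opposite directions by the group means. +102061 was 5.98 points higher in treated fish and +100579 had a difference of -9.19 points, the lowest of the 103 members. Set against the median region of each library, the log2 heights of +100579 were 0.67, 0.18 and -0.54 in the treated libraries. In the controls they were 0.55, 0.21 and 0.29. Cortisol-treated replicate 3 was thus the lowest library, and cortisol-treated replicate 1 stood above each control.

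In *znf395b* the promoter (-70) and the adjoining intronic region (+486) formed 1 merged region, with the same values in 5 libraries. Treated libraries had 93.5, 92.5 and 93.9, and control replicates 1 and 3 had 89.7 and 94.9. In control replicate 2 the strongest peaks over the promoter and over the intron were different ones, at 32.1 and 92.0. The difference of 21.1 points at the promoter, among the largest of the members, includes this low value, while the adjoining part differed by 1.11 points. Whether the caller had split 1 peak there was not tested. The second intronic region (+4229) stood at 57.5, 46.9 and 55.0 against 16.0, 19.1 and 69.8, where control replicate 3 was the highest of the 6.

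*znf207a*, whose mammalian relative BuGZ acts at the mitotic spindle, had a promoter region and 3 regions far from its start. The promoter (-43, chr3:34104327-34104685) stood at 44.6, 68.6 and 74.0 in the treated and 33.4, 67.0 and 65.7 in the control libraries. In both groups the 12-month library was the lowest. The region at +46412 ran from 15.9 to 43.2, that at +102174 from 0.622 to 34.1, and that at +103957 from 64.8 to 76.4. The last 2, also near each other, differed in opposite directions between the groups, +102174 being 14.6 points higher in treated fish and the values of +103957 having a difference of -5.90 points.

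*znf609a*, whose mammalian relative works with the cohesin loader, had its most open region in an intron 62194 bp from the start, from 73.1 to 84.4. The promoter (-53) ran from 47.3 to 71.9. The intron at +68994 stood at 41.8, 50.9 and 45.5 in the treated and 36.0, 33.6 and 17.1 in the control libraries, without overlap. The intron at +10041 stood at 17.3, 41.9 and 36.0 against 6.77, 12.3 and 23.6, with an overlap.

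The remaining genes with 3 regions have names without a mammalian counterpart known for a role in blood. *znf1124* was open at its start (-63, from 72.3 to 85.9) and at +25452 (from 73.6 to 88.7) and less so in an intron (+17538, from 50.4 to 73.7). *znf1005* had regions at -22058 (44.6 to 66.6), -11462 (46.3 to 71.7) and -76 (34.2 to 53.7). *znfl2a* stood from 80.5 to 91.8 at -2095, from 54.1 to 71.4 at -60 and from 14.2 to 36.0 at +1957. In *znfl2a* openness thus fell along the gene from the upstream site, which the annotation gives to *igfbp1b*, to the intron.

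**Figure D2:**
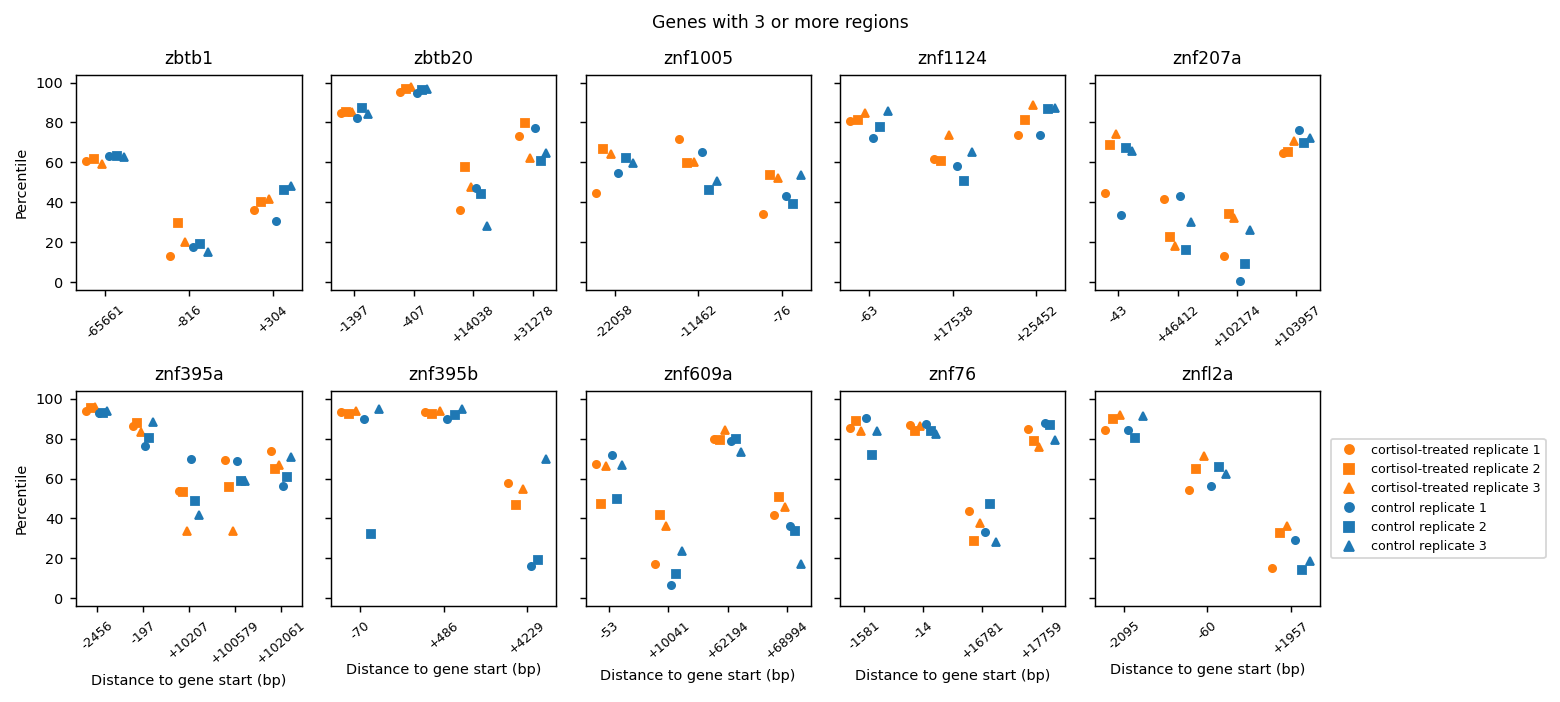
Percentile (vertical axis, 0 to 100) of each region of the 10 genes with 3 or more regions, placed by distance to the gene's start in bp (not to scale); colour marks treatment and shape marks the replicate, 1 point per library. Regions of a gene often sit at different levels, as in *zbtb20* and *znf609a*, and the point of control replicate 2 at *znf395b* -70 stands alone at 32.1.

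Between treated and control libraries the members as a whole differed by a few points. The median difference of the group means was 2.06 points, beside 3.24 over all listed regions, and single members ran from -9.19 to 22.5 points. Treated fish were higher at 70 of 103 (68.0%, against 79.0% of all listed regions). By class they were higher at 36 of 45 promoters (80%, against 80.4% of all listed promoters) and 14 of 18 introns (77.8% against 81.5%). Between genes they were higher at 17 of 34 regions (50% against 76.4%). The median difference there was 0.098 points, beside 3.35 over all such listed regions. On the scale of summit heights the median difference was 0.18 in log2, the same as over all listed regions. Of the 97 members with a height in every library 67 were higher, where 7295 of 8887 such listed regions were. The erythroid markers had medians of 80.5, 83.9 and 83.8 in the treated and 76.1, 75.0 and 80.6 in the control libraries over their 29 regions, and their part in these differences was not tested.

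Regions whose groups did not overlap were few. Each treated library lay above each control at 7 members (6.80%), where the background was 9.54% of all listed regions and 5.88% of regions in which every library had a peak. The reverse held at 1 member, the upstream region of *zbtb1*, against backgrounds of 0.775% and 2.9%. The 7 were *znf410*, *zbtb10* (+28202), *zbtb34* (+9088), *znf131* (-141), *znf513* (-1651), *znf593* (-4) and *znf609a* (+68994). Taking the libraries by replicate number, treated exceeded control in each of the 3 comparisons at 28 members (27.2%, against 32.4% of all listed regions). The 28 include *znf367*, *zbtb11* and the *zbtb20* promoter, whose groups overlapped. The count of 7 depended on which libraries entered, a condition over fewer libraries being easier to meet. It was 23, 11 and 8 without cortisol-treated replicate 1, 2 and 3, where 24.6%, 14.4% and 13.4% of all listed regions met it. It was 12, 9 and 31 without control replicate 1, 2 and 3, where 13.7%, 12.6% and 34.3% did. Ranked within each library's own list, 1 member was left, *zbtb34* (+9088), at 62.1, 77.2 and 44.4 in the treated and 27.2, no peak and 40.3 in the control libraries. The share of all listed regions left in that ranking was not computed. In that ranking the treated mean was higher at 24 of 103 members and at 2483 of the 9546 listed regions, and the median difference of the members was -1.81 points, beside -1.29 over all listed regions. The direction of the small median difference thus turned with the set of peaks used for ranking.

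Among the members with the largest differences, *zbtb10* had 22.5 points, *znf395b* (-70) 21.1, *znf45l* (-15047) 20.8, *zbtb8os* 19.7 and *znf395b* (+4229) 18.2. The *zbtb10* region, 28202 bp from the start at chr19:32285244-32285513, stood at 38.8, 32.0 and 36.9 in the treated and 11.3, 7.20 and 21.6 in the control libraries. It was therefore a weak region, and its lowest treated value lay above its highest control. The *znf45l* region at -15047 stood at 43.9, 40.4 and 43.3 against 11.3, 12.3 and 41.6, where control replicate 3 fell among the treated libraries. Of these 5, the promoter part of *znf395b* was the one with treated values above 90.

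The weakest regions in the controls were *zbtb8os*, *zbtb34* (+9088), *znf511* (-214), *znf45l* (+146) and *znf207a* (+102174). *znf511* stood at 1.21, 25.9 and 30.2 in the treated libraries and had no peak, 4.48 and 15.2 in the controls. *znf45l* (+146) stood at 8.98, 23.9 and 20.3 against no peak, 8.80 and 13.2. In both the 12-month library of each treatment was the lowest.

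The smallest differences, all below 0, were those of *znf395a* (+100579), *znf1051*, *znf1068*, *znf326* and *znf395a* (+10207). *znf1051*, 247257 bp from its assigned start, stood at 59.0, 62.2 and 59.3 in the treated and 53.9, 74.2 and 74.8 in the control libraries, with a difference of -7.42 points between the means. These regions stand in a list of sites more open in treated fish, while on the percentile scale their treated means were lower.

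Outside the genes and regions chosen by rule were 44 regions, 24 of them promoters. Their mean percentiles ran from 26.3 to 95.9 with a median of 67.0, and their differences from -5.62 to 15.4 points with a median of 2.15. Among the most open of them were the promoters of *znf277* (94.7, 97.4 and 95.4 in the treated and 94.6, 92.9 and 95.4 in the control libraries) and *zbtb14* (91.7, 93.8 and 93.7 against 86.2, 91.4 and 92.6). Both overlapped between groups.

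**Figure D3:**
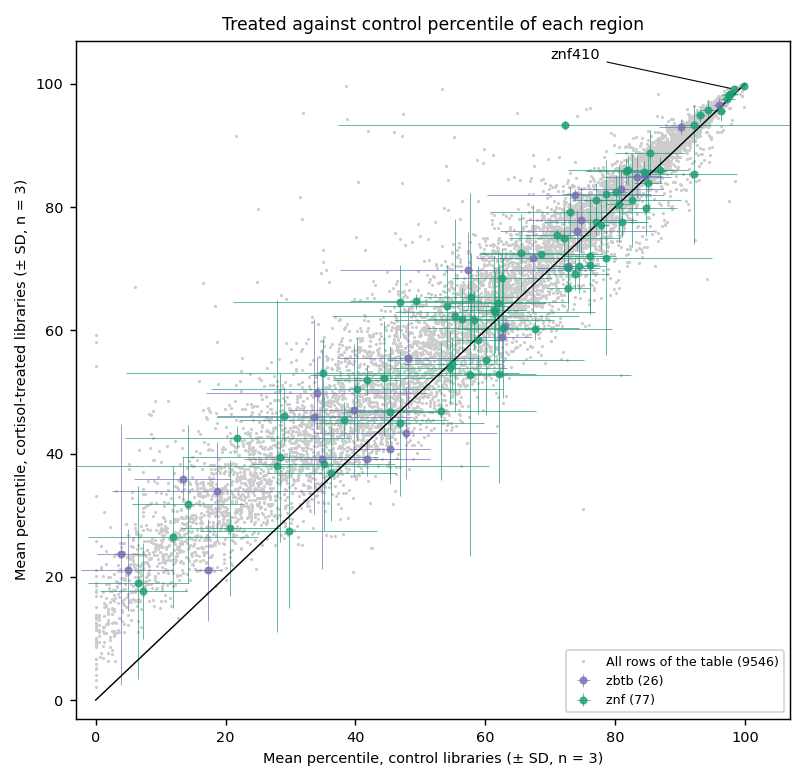
Mean percentile of the cortisol-treated libraries (vertical axis) against that of the control libraries (horizontal axis), both 0 to 100, with SD over n = 3 libraries as bars; purple points are the 26 *zbtb* regions, green points the 77 *znf* regions, grey points all 9546 listed regions and the line marks equal values. Of the members, 70 of 103 lie above the line, and *znf410* sits near the top end where little room is left.

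The partners of these factors were looked at in lists of genes. Of 13 NuRD genes, the complex that ZNF410 feeds in mammals, 9 had a listed region and 16 regions in all. *chd4a* had 1 region, with a mean percentile of 54.9, a difference of 11.2 points and overlapping groups, and *chd4b* had none listed. Every treated library was above every control at 4 of the 16 NuRD regions (25%) and below at 1 (6.25%). The backgrounds were 9.54% and 0.775% of all listed regions, and the median difference was 0.931 points. The 4 regions belong to *gatad2ab*, *mbd2* and *mbd3a*. Of 16 partners and co-repressors of BTB factors, 10 had a region, 20 regions in all, with a median difference of 2.76 points and 1 region without overlap (5%, same background), treated being higher. Among other C2H2 factors, such as the *klf*, *sp* and *egr* genes, 36 had a region. Their 96 regions had a median difference of 4.09 points and 13 had no overlap (13.5%, same background), treated being higher at each. For the counts of genes with a region, here and for the marker genes, no share over all genes was computed. Whether these lists differ from the *znf* and *zbtb* genes was not tested.

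Age was not used to choose the members and is balanced over treatment, so the 12-month and 10-month libraries were compared by a test. The heights tested nevertheless come from the same libraries from which the list was made. The choice of members is therefore not independent of them, and the listed regions serve as a second background below. Summit heights in log2, centred on the median of each library, were fitted by limma with treatment and age over all 13835 regions in which every library had a peak, and p-values were adjusted by Benjamini-Hochberg with a threshold of 0.05. With 2 libraries per age, the p-values measure only the spread between these libraries. Age cannot be told apart from replicate number, batch, depth or the height of peaks over the background. The lists of the 10-month libraries had backgrounds of 1.99 and 3.39 reads and those of the 12-month libraries 5.72 and 9.06. Of the members, 98 lay in such a region, 97 distinct regions in all, and 5 in none.

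A change with age passed the test at 14 of 97 member regions (14.4%), where the background was 16.9%. Of these, 6 were more open at 12 months (6.19%, background 11.9%) and 8 less open (8.25%, background 5.01%). The total is near the background of all regions with a fit. Over the listed regions with such a fit, 898 of 8576 passed (10.5%). Of these, 243 were more open (2.83%) and 655 less open (7.64%) at 12 months. Beside the listed regions the members' shares were higher, which was not tested. By place, 0 of 43 member promoters were more open and 6 less open, where 0.0937% and 10.2% of all listed promoters were. Between genes 5 of 33 were more open and 2 less open, where 6.25% and 5.58% of all such listed regions were. Beyond 100 kb from the start 4 of 8 were more open and 0 less open, where 18.2% and 3.94% were. In the whole list, too, the called promoters were mostly less open and the called regions beyond 100 kb mostly more open. The median log2 change of the members between 12 and 10 months was -0.25, beside -0.20 over the listed regions. Without control replicate 1 it was -0.18, beside -0.17, and without control replicate 3 it was -0.14, beside -0.11. Each of these 2 fits leaves 1 library at an age, so their counts are not compared.

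The 4 steepest changes lay between genes, 3 of them on chromosome 4. The region assigned to *znf1147* (chr4:63400578-63400818, 773426 bp from the start) had percentiles of 84.1, 48.7 and 25.7 at 12, 11 and 10 months in the treated and 85.0, 51.4 and 36.7 in the control libraries. In both groups the 12-month library was the highest and the 10-month library the lowest, and the height was higher at 12 months by 1.95 ± 0.228 in log2 (SE; limma adjusted p = 4.43e-07). The region 145776 bp from *znf1068* (chr4:57794647-57794934) stood at 96.2, 86.0 and 73.7 in the treated and 98.2, 93.3 and 84.9 in the control libraries, higher at 12 months by 1.58 ± 0.190 (SE; limma adjusted p = 5.97e-07). The other *znf1068* region, at -573118, had the same order where it had a peak, 67.5, 32.0 and 14.5 against 63.8, no peak and 19.8, and could not be fitted.

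*znf1041* was the most open member of all. Its region, 231 bp at chr4:28576239-28576469 and 146813 bp from the start, stood between 99.4 and 99.9 in the 6 libraries. Its summit held 3306, 2956 and 619 reads at 12, 11 and 10 months in the treated and 4855, 3100 and 1646 reads in the control libraries. These are the tallest summits of any member in each library, and the height was higher at 12 months by 1.91 ± 0.250 in log2 (SE; limma adjusted p = 1.73e-06). At the same time it was 0.99 lower in log2 in treated than in control fish, without a test. The aligner settings kept reads with up to 3 equally good places and reported 1 of them. Where near-identical sequence occurs, the place of a read is therefore uncertain. Whether these chromosome 4 regions, far from the starts they are named for, lie in such sequence was not tested, nor was its part in the values.

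*znf326*, whose mammalian relative couples transcription to splicing, was the fourth. Its region (chr6:25051183-25051437, 14574 bp from the start) stood at 89.0, 68.4 and 58.1 in the treated and 93.1, 81.8 and 60.8 in the control libraries at 12, 11 and 10 months. The height was higher at 12 months by 1.53 ± 0.20 in log2 (SE; limma adjusted p = 1.73e-06). The smaller rises were at *znf395a*, by 0.75 at +10207 and 0.73 at +100579 (limma adjusted p = 0.0298 and 0.0372).

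The size of these rises and their calls depend on how libraries are scaled, and at *znf395a* so does the direction. Scaled to the background of each list in place of the median region, the median of all regions moved to -1.46 in log2 between 12 and 10 months (-0.07 when scaled to the median region). On that scale 86 of 97 members were less open (88.7%) and 0 more open at 12 months, where 81.8% of all regions, and 93.7% of the listed ones, were less open and 0.094% of all regions more open. *znf1147*, *znf1068*, *znf1041* and *znf326* had values above 0 without passing the test (limma adjusted p = 0.329, 0.757, 0.136 and 0.827, the highest over the alternatives being 0.329, 0.757, 0.295 and 0.827), and both *znf395a* regions turned to -0.64 and -0.66. The changes above are therefore relative to the median region of a library.

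The regions less open at 12 months were mostly promoters. The clearest was that of *znf207a* (-43), lower by 0.96 ± 0.219 in log2, with a limma adjusted p of 0.00179 and values from 3.12e-04 to 0.0271 over the alternatives. It passed under each of the 10 alternatives tried, but some of these could hardly have failed. Without either 11-month library the estimate stayed at -0.96. Scaled to the background of each list, 93.7% of all listed regions were called less open. It was followed by *znf1124* (+25452), at 73.6, 81.0 and 88.7 in the treated and 73.8, 86.6 and 87.4 in the control libraries at 12, 11 and 10 months, with a log2 of -0.81 (limma adjusted p = 0.00369). Then came the promoters of *znf503*, a developmental co-repressor, with -0.73 (limma adjusted p = 0.0217), and *zbtb24*, mutated in a human immunodeficiency with loss of DNA methylation, with -0.68 (limma adjusted p = 0.0293). The promoter of *znf384l*, relative of a gene fused in human leukaemia, had -0.78 (limma adjusted p = 0.0300). Near the threshold stood the promoters of *zbtb12.2* (-0.75, limma adjusted p = 0.0386) and *zbtb34* (-0.62, adjusted p = 0.0416) and the region 1491 bp upstream of *znf341*, an activator of *STAT3* in humans (-0.63, adjusted p = 0.0395). All p-values of this paragraph are limma values adjusted over the 13835 regions. Of the 14 calls, 7 did not hold without control replicate 1 and 7 without control replicate 3. The former were *znf1124*, *znf503*, *zbtb24*, *znf395a* (+10207), *znf384l*, *znf341* and *zbtb34*, and the latter were the same with *zbtb12.2* in place of *znf1124*. Without cortisol-treated replicate 1 the calls at *znf395a* (+100579), *zbtb12.2* and *zbtb34* did not hold, and without cortisol-treated replicate 3 those at both *znf395a* regions and *zbtb12.2*.

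The change was not the same size in both treatments at each of these promoters, and that difference was not tested. At *znf384l* the control libraries stood at 19.5, 50.4 and 70.6 at 12, 11 and 10 months and the treated libraries at 58.6, 70.4 and 64.9. At *zbtb24* the controls stood at 62.1, 74.6 and 85.9 and the treated libraries at 72.4, 77.4 and 78.8. In both the 12-month control was the lowest library of the 6, and the treated libraries of those ages lay closer together. Neither passed the test without control replicate 1 or without control replicate 3.

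The *znf410* region did not pass the test of age. Its height changed by -0.10 ± 0.194 in log2 between 12 and 10 months (SE; limma adjusted p = 0.782).

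**Figure D4:**
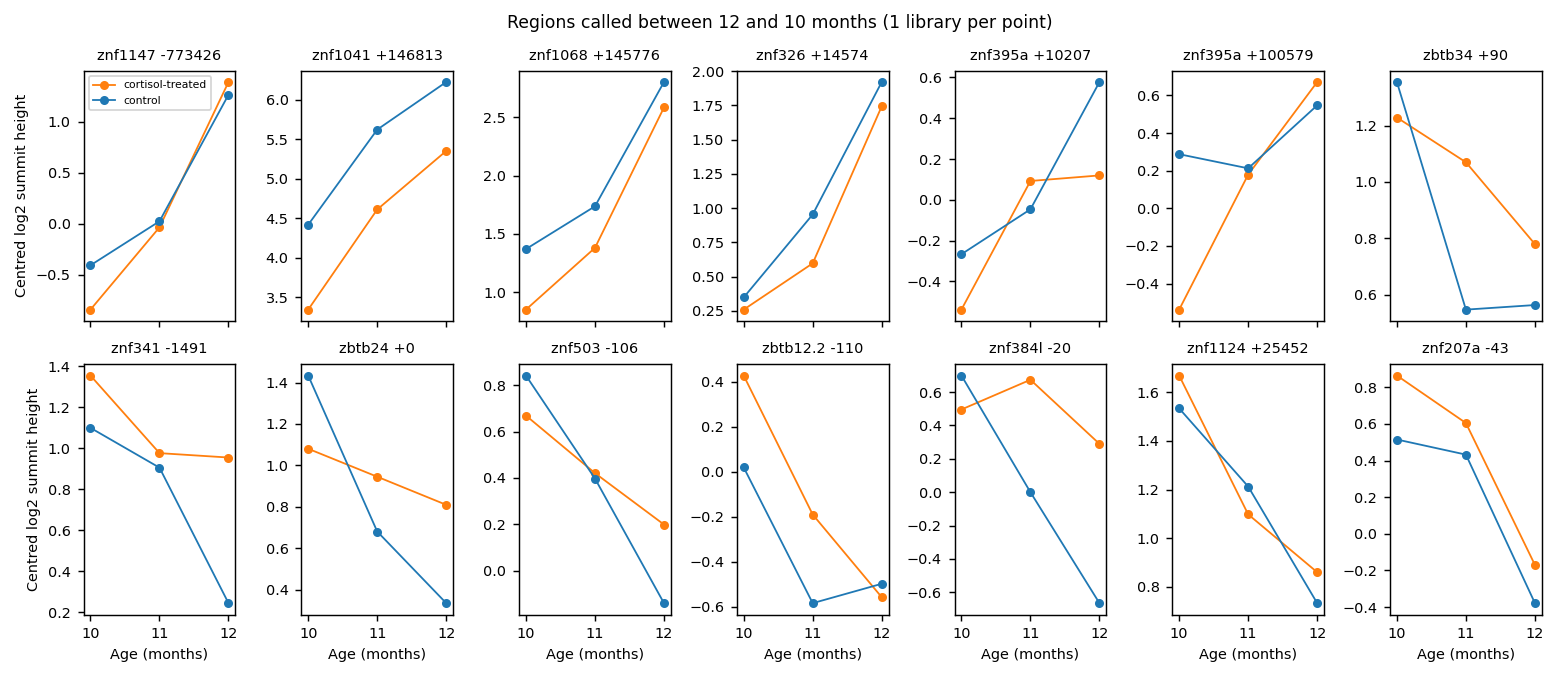
Summit height in log2, centred on the median region of each library (vertical axis, its range set for each panel), against age in months for the 14 regions that passed the test between 12 and 10 months; each point is 1 library, orange for cortisol-treated and blue for control. In both treatments the first 6 panels are higher at 12 than at 10 months and the other 8 lower. Within a treatment the 11-month point does not always lie between them, as in the treated libraries at *znf384l*.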

How the data were processed

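Blood from 3 cortisol-treated and 3 control zebrafish libraries was assayed by ATAC-seq. Per the labels and the methods, the authors trimmed reads with Trimmomatic 0.32, shortened them, aligned them to GRCz10 with Bowtie 1.0.0, keeping reads with up to 3 best places, removed mitochondrial reads, converted the alignments with SAMtools 0.1.18 and called summits with MACS2 2.1.1.20160309 against 1 background per list with duplicates kept. FastQC 0.11.8 was used for quality control and HOMER 4.8 for annotation. The deposited lists give a score per summit, 10 times the -log10 q, which is not scaled between libraries. The distance to the nearest start, another deposited value, was taken from the annotated comparison. That comparison also holds the authors' own score for treated against control, which was not used, and 2 further lists of the authors' comparison were left out.

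Overlapping peaks were merged into 153054 regions, of which 13835 had a peak in every library, and the best peak overlapping a member by at least 1 bp gave its percentile. Summit heights and the background were solved from the steps between scores. As a check, the backgrounds of the 3 treated libraries summed to 14.3 reads, beside 14.4 in the pooled treated list, and those of the controls to 21.5, beside 21.7. Raw read totals were not at hand, so depth is known through the background, and no counting interval is given.

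Values are given as mean ± SD over 3 libraries. The age comparison used limma 3.58.1 in R 4.3.3 with a variance trend, treatment and age as terms, and Benjamini-Hochberg adjustment. It was tried on simulated data in which 200 of the 13835 regions changed. Of the 200, it recovered 0 at a log2 change of 0.5, 140 at 1 and 200 at 2. False calls numbered 0, 7 and 9. In that setting many changes below 1 in log2 can be missed. In the data 2343 regions were called, more than the 200 changed here, so the recovery need not be the same there. Figures were drawn with matplotlib 3.10.9, tables were handled with pandas 2.3.3 and numpy 2.4.6, and statistics used scipy 1.17.1 under Python 3.11.15. The members and gene lists were chosen with earlier results of these data known. Genes were named by this rule: *znf410*; genes with 3 or more regions; the 5 regions highest and the 5 lowest in controls; the 5 with the largest and the 5 with the smallest difference; up to 10 regions called by age; a list of blood-linked genes; and the 5 nearest to *znf410*. This gave 59 regions in 32 genes. Other members named, among them *znf131*, *znf513*, *znf593*, *zbtb12.2*, *znf341*, the *zbtb34* promoter, *znf277* and *zbtb14*, were named after their values were seen. Alternatives were another reference set for the percentile, an overlap of 50%, heights in place of scores, another name or distance rule, another scaling, a filter on low regions, no treatment term and leaving out each library.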

Additional observations from a re-analysis of the deposited data

How the results depend on the processing

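Ranked within each library's own list, the median mean percentile of the members was 86.7 (63.2 among regions common to the 6 libraries), the median treated-minus-control difference -1.81 points (2.06) and the count of members with each treated library above each control 1 (7). By centred log2 height that count was 12. Leaving out a library moved the median difference between 0.991 and 3.64 points and the count of such members between 8 and 31. For the counts of 1 and 12 the share over all listed regions was not computed, so they are no result about the members. Of 59 differences at the regions chosen by rule, 25 changed sign in the own-list ranking and 0 with an overlap of at least 50%. The number of member regions called between 12 and 10 months, 14, was 86 when scaled to the background of each list, 5 without a treatment term, 5 for percentiles on the logit scale and from 7 to 20 without 1 library. Over all 13835 regions the count of 2343 became 11336 when scaled to the background. It became 1260 among the taller regions (those above the median by mean height), 1245 without a treatment term and 1637 on the logit scale. *znf395a* at +10207 and +100579 reversed to -0.64 and -0.66 when scaled to the background. The promoter of *znf207a* passed in 10 of 10 alternatives, some of which, such as scaling to the background, could hardly have failed for a falling region. The causes were not tested. Promoter regions numbered 45 by annotation and 56 within 1000 bp of the start, and names with *znf* and a digit or *zbtb* gave 100 regions. No paired analysis was possible because the treatment difference, by which the regions were listed, was given no test, and in the age comparison the replicate number is the age itself.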
